A study of Mus musculus with 18 samples.

Results

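The interferon-gamma-induced GTPases described here are 10 genes: the guanylate-binding proteins Gbp2, Gbp2b, Gbp3, Gbp5, Gbp6 and Gbp7, and the immunity-related GTPases Iigp1, Igtp, Irgm1 and Irgm2. They were taken by symbol from the 32285 genes of each count matrix, and all 10 were present in all 10 mRNA libraries. The 10 genes were chosen by earlier values of these libraries, the levels per class and the contrast of expanded against control skin, so their arm differences, and the counts of them past a threshold ("called"), are given as a description, without p-values, and are no test of the set. Single cells of mouse skin were measured by droplet sequencing of the 3′ ends of mRNA. Every mouse had surgery, with an incision near the tail and a path opened under the back skin as far as the neck. The mice of the expanded arm then received a hydrogel expander under the skin, and the mice of the control arm received none, so that wounding was shared by both arms. Skin was taken 1, 2 or 4 days later and sorted for live cells. Each arm had 5 libraries, from day 1 in rounds 1 and 2, day 2 in rounds 1 and 2, and day 4 in round 1. Round is used here for the number after the day in the library names, which do not say what it marks. A library pools the mice of 1 arm and round, which antibody hashtags tell apart in part in 8 libraries. Strain, age and sex are not given in the sources used here. No interferon was given or blocked in either arm, so the name of the gene set is background and not a property that these libraries measured.

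Interferon-gamma is secreted mainly by natural killer (NK) cells and T cells and binds a receptor that activates the kinases JAK1 and JAK2, and the signal reaches the nucleus at a short DNA element, the gamma-activated site (GAS). The factor IRF1, itself induced by interferon-gamma, binds the interferon-stimulated response element (ISRE), which is also bound after type I interferon. The GTPases made in response gather on vacuoles and membranes that hold intracellular parasites and bacteria, and some of the guanylate-binding proteins help to start inflammasomes; endothelial cells, macrophages and fibroblasts can all make them.

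Both families lie in clusters. On mm10 (GRCm38, GENCODE M21 gene models) Gbp5 (chr3:142493978-142522344), Gbp7 (chr3:142530342-142550149), Gbp3 (chr3:142560026-142573209), Gbp2b (chr3:142594847-142619179) and Gbp2 (chr3:142620602-142638008) follow each other on the plus strand of chromosome 3. Gbp6 lies on the minus strand of chromosome 5 (chr5:105270702-105293698) and Iigp1 lies apart from the others. Irgm1 is on the minus strand of chromosome 11 (chr11:48861968-48871683). Igtp (chr11:58199556-58207591) and Irgm2 (chr11:58199618-58222782) overlap by 7974 bases on the plus strand of that chromosome. Reads of the overlapping pair, and of the near-identical guanylate-binding proteins, cannot always be given to 1 gene, so the split between these neighbours is uncertain.

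RefSeq start sites on GRCm38.p6 were available for 8 of the 10 genes, and their promoters are shown because 1 short element recurs in the stretches below. Each line is 100 bases read 5′ to 3′ along the gene's strand, with matches to the ISRE letters GAAANNGAAA or the GAS letters TTCNNNGAA, on either strand, in capitals.
Gbp2: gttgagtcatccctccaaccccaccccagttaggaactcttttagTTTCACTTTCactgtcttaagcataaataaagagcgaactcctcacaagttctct
Gbp2b: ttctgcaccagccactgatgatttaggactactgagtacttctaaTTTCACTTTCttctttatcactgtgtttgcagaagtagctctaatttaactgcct
Gbp3: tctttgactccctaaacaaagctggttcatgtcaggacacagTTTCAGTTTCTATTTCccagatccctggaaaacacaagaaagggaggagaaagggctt
Gbp5: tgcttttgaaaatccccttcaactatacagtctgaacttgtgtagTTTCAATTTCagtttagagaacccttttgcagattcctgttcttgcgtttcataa
Gbp7: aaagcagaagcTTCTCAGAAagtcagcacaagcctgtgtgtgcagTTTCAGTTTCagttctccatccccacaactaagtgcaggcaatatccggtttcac
Igtp: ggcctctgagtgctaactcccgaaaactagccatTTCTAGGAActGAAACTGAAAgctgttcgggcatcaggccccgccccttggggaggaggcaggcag
Irgm1: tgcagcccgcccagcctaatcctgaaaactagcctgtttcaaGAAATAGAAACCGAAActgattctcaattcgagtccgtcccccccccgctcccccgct
Irgm2: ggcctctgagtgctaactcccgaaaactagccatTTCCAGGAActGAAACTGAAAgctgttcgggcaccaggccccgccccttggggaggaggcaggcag

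The stretches lie at chr3:142620559-142620658 for Gbp2, chr3:142594665-142594764 for Gbp2b, chr3:142559957-142560056 for Gbp3, chr3:142496724-142496823 for Gbp5 and chr3:142530238-142530337 for Gbp7. Those of Igtp, Irgm1 and Irgm2 lie at chr11:58199477-58199576, chr11:48871393-48871492 and chr11:58214868-58214967. In windows of 300 bases (250 before and 50 after the start), the ISRE letters were present in 8 of the 9 windows of these genes, at least 1 per gene (Gbp3 has 2 windows, and its second held none), and in 1131 of all 32851 promoter windows (3.443%). The GAS letters were present in 4 of the 9, those of Gbp5, Gbp7, Igtp and Irgm2, and in 2726 of all windows (8.298%). Both GAS matches of Gbp5 (at -245 and -52) and that of Gbp7 at -106 lay outside the printed stretches. The first base of the ISRE match stood 59 bases before the start in Gbp2 (position -59), at -53 in Gbp7, -34 in Igtp and -64 in Irgm2. Gbp3 and Irgm1 each had a pair of overlapping matches, beginning at -45 and -39 and at -30 and -24, and those of Gbp5 and Gbp2b lay farther out, at -165 and -137. The stretches of Igtp and Irgm2 were the same at 98 of 100 bases. A match describes the letters only and does not show that a factor was bound.

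After filters on genes, molecules, mitochondrial share and doublets, 45488 cells remained, 28452 of them from control and 17036 from expanded skin. They held 45252 distinct barcodes, 236 of which occurred in more than 1 library. Libraries had between 17726739 and 75470722 unique molecular identifiers (UMIs, 1 per captured mRNA molecule) over all genes. Clustering gave 37 clusters, 27 of which carried the markers of 14 known classes ("endothelial-like" and so on). The 9821 cells of the other 10 clusters are called by leading genes. Levels are counts summed over the cells of a class in a library, scaled to 1000000 UMIs of that sum (CPM), and a class entered with at least 20 cells in a library. A level is thus a share of the class's captured mRNA, and because 3′ counts do not depend on transcript length in a simple way, levels are compared between classes and arms and not between genes.

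Endothelial cells held the highest summed level of the 10 genes in control skin, and most of that sum was Iigp1. Of the other members, all but Gbp7 and Irgm1 were highest in another class, as given below. The 10 genes summed to 2339 ± 254 CPM in endothelial-like cells (SD, n = 5 libraries), above the next class by more than the spread between libraries. That next class was the Schwann-like cells at 1145 ± 284 CPM (n = 4), and behind it came the Foxp3 Ctla4 cluster, which carries genes known from regulatory T cells, at 993 ± 185 CPM (n = 4). Lymphatic endothelial-like cells stood at 956 ± 505 CPM, pericyte or smooth muscle-like cells at 838 ± 254 CPM, fibroblast-like cells at 523 ± 146 CPM and macrophage or monocyte-like cells at 404 ± 152 CPM (n = 5 each). Melanocyte-like cells, at 587 ± 378 CPM (n = 4), came between the pericyte or smooth muscle-like and the fibroblast-like cells. With them in place, from the Schwann-like cells down to the macrophages, neighbours in this order did not differ by more than their spread. The lowest means were in keratinocyte clusters, with 38.4 CPM in the Krt15 Lhx2 cluster, 32.9 CPM in suprabasal keratinocyte-like cells and 17.5 ± 5.33 CPM in the Krt25 Krt28 cluster. The Aadac Defb1 cluster, which carries sebaceous and basal keratinocyte markers, stood higher at 76.5 ± 68.0 CPM (n = 5), above mast cell-like cells at 64.2 CPM. Thinning every cell to 2000 UMIs left the endothelial level first at 2366 ± 271 CPM.

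In expanded skin the order at the top was different. The Foxp3 Ctla4 cluster came first at 1495 ± 811 CPM (n = 4), then Schwann-like cells at 972 ± 789 CPM (n = 5) and endothelial-like cells at 944 ± 220 CPM (n = 5), and these 3 could not be ordered beyond their spread. Lymphatic endothelial-like cells stood at 748 ± 531 CPM, neutrophil-like cells at 632 ± 972 CPM and melanocyte-like cells at 518 ± 383 CPM. Below them were pericyte-like cells at 352 ± 162 CPM, fibroblast-like cells at 338 ± 92.9 CPM and macrophages at 306 ± 199 CPM.

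**Figure D1:**
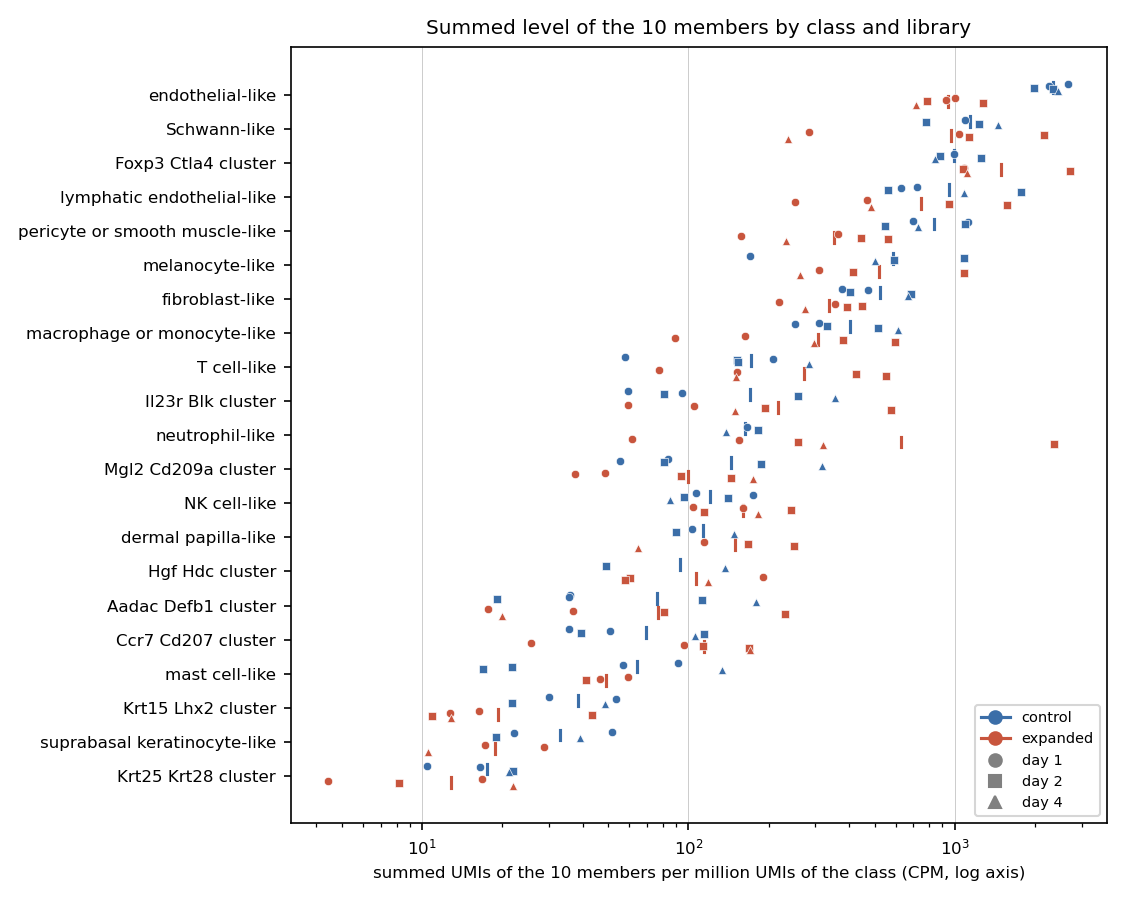
Summed level of the 10 GTPase genes in CPM (log axis) in each class present in both arms; each point is 1 library, its shape gives the day, and ticks are the means per arm. In endothelial-like cells the control libraries lie between 1979 and 2667 CPM and the expanded libraries between 716 and 1280 CPM.

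The members differed in where they were highest. Iigp1, an effector of the immunity-related family that disrupts parasite vacuoles, was foremost an endothelial transcript: 1417 ± 231 CPM in control endothelial-like cells against 362 CPM in the next class, the lymphatic endothelial-like cells, a gap larger than the spread. Gbp2b, the mouse gene once called Gbp1, was highest in control macrophages at 58.3 ± 23.6 CPM, also above its next class, lymphatic endothelial-like cells at 12.0 CPM, by more than the spread. Gbp3 was highest in the Foxp3 Ctla4 cluster in both arms, at 196 CPM in control and 396 CPM in expanded skin. Gbp5, Gbp6 and Igtp were also highest there in control skin, Gbp2 and Irgm2 in Schwann-like cells, and Gbp7 and Irgm1 in endothelial-like cells. For these the first and second class were not always separated beyond their spread. Across 193 combinations of class and library, the closest pair of members was Gbp3 and Gbp5 (Pearson r = 0.586 on log2(CPM + 1), each class centred within itself), followed by Gbp2 and Gbp7 (r = 0.526). Gbp2b and Irgm1 were the least alike (r = 0.024), and the overlapping pair Igtp and Irgm2 reached r = 0.301. These combinations share libraries and depth, so the values are descriptive.

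Among the classes tested, the endothelial-like cells of blood vessels had the lowest median fold change of the members. Of the 9 members with enough counts to test, 8 were lower in expanded skin at an adjusted p under 0.05 (edgeR's quasi-likelihood test, adjusted for day, with Benjamini-Hochberg adjustment over all genes of the class) and none was higher. Over all 10479 genes tested in these cells, 5.91% were called lower. The median log2 fold change of the 9 members was -1.42, against 0.02 over all genes. In 6 of the 9, every expanded library lay below every control library, a pattern shown by 2.63% of all genes in this class. Library values below follow the order day 1 rounds 1 and 2, day 2 rounds 1 and 2, and day 4.

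Iigp1 stood at 1754, 1539, 1267, 1177 and 1350 CPM in control endothelial-like cells and at 597, 551, 367, 728 and 346 CPM in expanded ones. Every expanded library was below every control library, with a log2 fold change of -1.57 ± 0.18 (SE). At least 1 Iigp1 molecule was found in 56.8% to 75.4% of control cells and in 31.9% to 50% of expanded cells per library after thinning to 2000 UMIs, and in 68.4% to 85.2% and 47.2% to 73.6% before it.

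Among the guanylate-binding proteins, Gbp2, which coats parasite vacuoles and bacteria, stood at 282, 203, 203, 435 and 339.9 CPM in control and at 91.3, 98.6, 131.6, 99.3 and 86.8 CPM in expanded endothelial-like cells. The arms did not overlap, and the log2 fold change was -1.61 ± 0.19. Gbp6 had the lowest ratio of the 9 tested members in these cells: 52.3, 47.5, 41.2, 60.3 and 81.2 CPM against 14.8, 9.47, 11.6, 15.6 and 10.8 CPM, or -2.35 ± 0.20 on the log2 scale, with no overlap. Gbp5, known for promoting inflammasome assembly, stood at 40.6, 37.2, 46.2, 136.9 and 100.8 CPM against 30.8, 26.1, 24.0, 58.2 and 33.4 CPM. Its arms overlapped through 1 expanded library of day 2, and its log2 fold change was -1.12 ± 0.27. Gbp3 (-0.80 ± 0.16) ranged from 46.2 to 82.9 CPM in control and from 32.6 to 55.3 CPM in expanded libraries and so overlapped as well. Gbp7 was the 1 tested member not called, at 140.8, 133.7, 99.0, 239 and 223 CPM against 116, 108.8, 104.9, 193 and 109.7 CPM (-0.52 ± 0.21). With day and round together as a block, which pairs the libraries of both arms, Gbp7 was called too, which made 9 of 9. Gbp2b had 22 UMIs in all control and 3 in all expanded endothelial-like cells and was not tested.

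The 3 regulatory members of the immunity-related family, which keep the effectors off the cell's own membranes, were lower in every expanded library than in any control library. Irgm1, which is needed for control of mycobacteria, stood at 168, 118, 188, 74.1 and 140.4 CPM against 64.8, 57.1, 64.0, 59.6 and 51.2 CPM (-1.31 ± 0.23). Igtp stood at 114, 85.8, 64.4, 94.8 and 103 CPM against 44.5, 27.5, 26.7, 48.2 and 23.8 CPM (-1.62 ± 0.21). Irgm2 stood at 39.7, 32.4, 23.1, 42.1 and 31.1 CPM against 11.7, 16.2, 10.7, 22.7 and 10.6 CPM (-1.42 ± 0.21). The highest expanded value of Irgm2 was thus just under the lowest control value, whereas for Igtp the gap was wider.

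**Figure D2:**
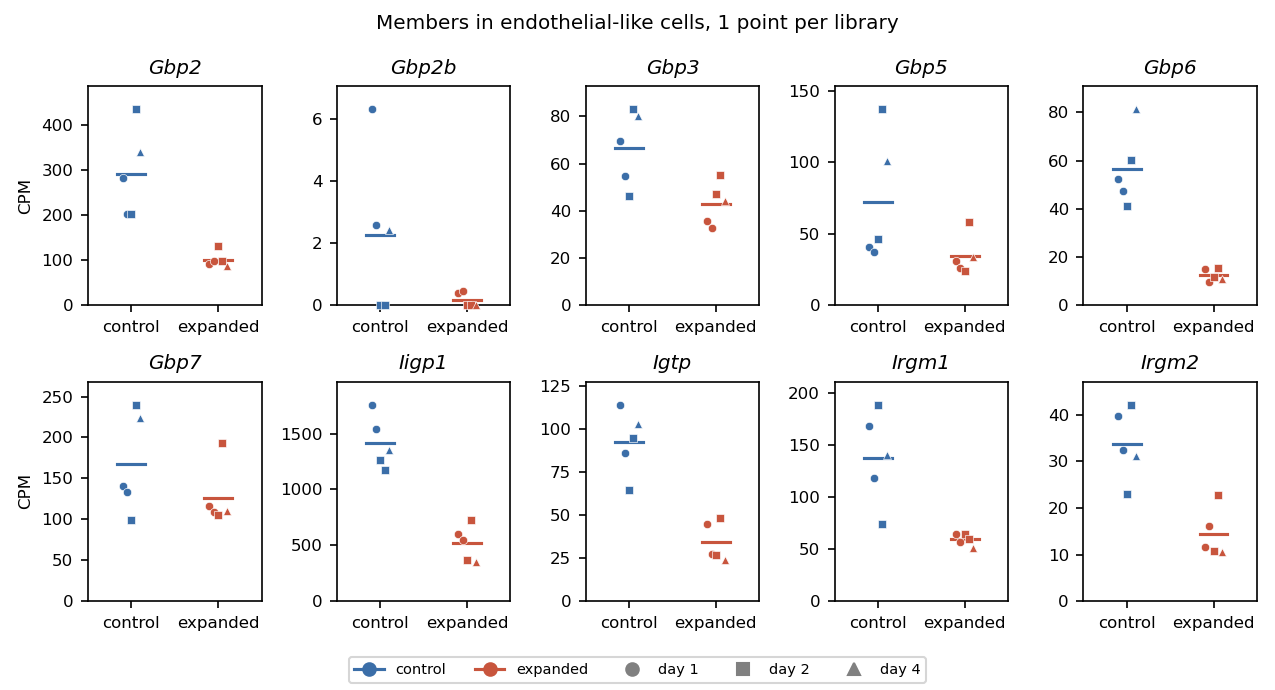
Level of each of the 10 members in endothelial-like cells in CPM, 1 panel per member with its axis from 0; each point is 1 library and bars mark the arm means. The expanded libraries lie wholly below the control libraries for Gbp2, Gbp6, Iigp1, Igtp, Irgm1 and Irgm2.

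The endothelial-like class joined 2 clusters, and the same members were looked at within each. In the larger, led by Rbp7, Sox17 and Gpihbp1, which mark capillary and arterial vessels, 8 members were called lower, with Iigp1 at -1.68 ± 0.18 and Gbp6 at -2.53 ± 0.22. In the smaller, led by Sele, Selp and Ackr1, which mark venules, 5 were called lower, namely Gbp6, Iigp1, Igtp, Irgm1 and Irgm2, with Iigp1 at -1.57 ± 0.24. That fit held 4 control and 3 expanded libraries (20, 41 and 56 cells), and no expanded library of day 2. The share of all genes called within each cluster is not given here, so these counts cannot be set against it. The larger cluster made up 77.0% to 88.3% of the class in control and 77.7% to 92.0% in expanded libraries. Expanded cells were deeper, with a median of 9582 UMIs against 5151 in control. After thinning all cells to 2000 UMIs, 6 members were called. Leaving out either day 4 library ended the call of Gbp5, and leaving out the control library of day 2 round 1 added that of Gbp7.

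Markers of other cells in the endothelial-like class were as follows. The 7 endothelial markers summed to 3932 to 4781 CPM in control and 4143 to 4597 CPM in expanded libraries, and none of the 7 was called. Of 7 fibroblast markers 3 were lower (1030 to 2794 against 24.1 to 2390 CPM summed), of 7 pericyte markers 2 were lower (117 to 234 against 52.5 to 135 CPM), and of 6 neutrophil markers 2 were higher (1.51 to 4.79 against 4.29 to 26.5 CPM), with Ly6g at 0 in all libraries. Erythroid markers summed to 10.7 to 3492 CPM against 1.95 to 24.1 CPM with none called. Among abundant fibroblast transcripts that can leak into droplets, Col1a2 fell from 503 to 178 CPM (log2 fold change -2.73, adjusted p = 0.0495, edgeR; not called without either control library of day 2, either expanded library of day 2, the expanded library of day 1 round 2 or either day 4 library), and Col1a1 was at 514 and 244 CPM (adjusted p = 0.0841). The part of these cells and transcripts in the GTPase result was not tested. T cell markers summed to 0 to 31.3 CPM in control and to 0.889 to 4.85 CPM in expanded libraries, and NK cell markers to 0 to 6.26 and 0 to 2.41 CPM.

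Other genes of the interferon-gamma pathway were lower in the same endothelial-like cells. The lists of these genes were fixed with earlier results of these data known and are not independent evidence of a direction. Of 11 further GTPases of both families, 9 were in the files and 7 were tested; 5 fell, none rose, and the median log2 fold change was -1.11. Gbp4 fell from 257 to 146 CPM (-0.91 ± 0.19, adjusted p = 0.0111) and Ifi47 from 89.3 to 39.9 CPM (-1.33 ± 0.19, adjusted p = 0.00201), while Gbp9 fell from 131.7 to 95.8 CPM (adjusted p = 0.0388). Gbp10 and Tgtp2 were the other two that fell. The call of Gbp9 was lost without either control library of day 1, the control library of day 2 round 2, the expanded library of day 1 round 1 or of day 2 round 1, or either day 4 library. Only 3 of the 7 were called without the control library of day 1 round 1, the expanded library of day 2 round 1 or either day 4 library.

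Among signalling genes 4 of 13 tested fell and none rose. Irf1, the factor that binds the ISRE, fell from 495 ± 61.6 to 260.5 ± 50.5 CPM (SD, n = 5 and 5; log2 fold change -1.02 ± 0.14, adjusted p = 0.00195, edgeR). Irf9 fell from 66.4 to 45.8 CPM (adjusted p = 0.00956), the feedback inhibitor Socs3 from 703 to 472 CPM (adjusted p = 0.0275) and Irf2 from 96.9 to 70.4 CPM (adjusted p = 0.0254). The receptor chains did not pass, with Ifngr1 at a log2 fold change of -0.43 (adjusted p = 0.0847) and Ifngr2 at 0.51 (adjusted p = 0.145), nor did Jak1 (-0.22, adjusted p = 0.233). Socs3 was not called without either control library of day 1, the control library of day 2 round 1, the expanded library of day 1 round 2 or of day 2 round 2, or either day 4 library. Irf2 was not called, and the count was 2, without the control library of day 1 round 1, the expanded library of day 1 round 2 or either day 4 library.

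Of 13 tested targets outside the GTPases 7 fell and none rose. Cd274, which encodes the T cell inhibitory ligand PD-L1, fell from 81.6 to 29.0 CPM (log2 fold change -1.58, adjusted p = 0.00282), and the chemokine Cxcl9 fell with a log2 fold change of -3.02 (adjusted p = 0.0123). Genes of peptide loading for MHC class I also fell: Tapbp from 159.9 to 101.9 CPM (adjusted p = 0.00739), Tap2 from 108 to 80.7 CPM (adjusted p = 0.0136), Tap1 (-0.71, adjusted p = 0.0275) and Psmb9 (-0.70, adjusted p = 0.028). Psmb8 was at 249 and 192 CPM with an adjusted p of 0.0572 (edgeR), or 0.0322 with day and round as a block. The count was 2 without either day 4 library and 4 without the expanded library of day 1 round 2 or of day 2 round 1. Of 4 tested inflammasome partners of the guanylate-binding proteins, Casp4 fell from 297 to 179 CPM (-0.82, adjusted p = 0.00533) and Casp1 from 20.8 to 14.3 CPM (-0.70, adjusted p = 0.0249), while Gsdmd had -0.48 (adjusted p = 0.0906). Casp1 was not called without the control library of day 1 round 2, either expanded library of day 1 or either day 4 library, and Tap2 not without either day 4 library.

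Of 12 tested type I interferon response genes Rtp4 alone fell (-1.12, adjusted p = 0.0251), all 12 had a negative log2 fold change, and the median over the list was -0.85. Isg15 was at 355 and 193 CPM (edgeR, adjusted p = 0.0568, or 0.0307 with day and round as a block, which made the count 2). Bst2 was at 282 and 227 CPM (adjusted p = 0.126) and Rsad2 at 114 and 59.5 CPM (adjusted p = 0.156). The count was 6 without the expanded library of day 2 round 2 and 0 without either day 4 library, either control library of day 1 or either expanded library of day 1. More type I genes were called with hashed mice, without the filter on low counts and within the cluster led by Rbp7, as given in the last section. Of the genes for interferon-gamma and its inducers Il15 alone could be tested in these cells (-0.20, adjusted p = 0.785, and positive without either day 4 library). Whether these lists differed from the GTPases was not tested.

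Pericyte or smooth muscle-like cells, which wrap the vessels, had 4 of 9 tested members lower: Gbp2, Iigp1, Igtp and Irgm1. Over all 8543 genes of this class 9.54% were called lower. All 9 members had a negative log2 fold change, with a median of -1.14 against 0.01 over all genes. Gbp2 stood at 281, 431, 284, 149.6 and 231 CPM in control and at 61.7, 63.0, 179, 145 and 55.7 CPM in expanded libraries (-1.65 ± 0.37); the arms overlapped on day 2. Iigp1 stood at 224, 428, 592, 222 and 224 CPM against 150, 8.75, 139, 218 and 75.9 CPM (-1.69 ± 0.46), and was the 1 member of 9 without overlap, though only just, beside 3.86% of all genes. Igtp was at 34.6 and 17.2 CPM on average (-1.14 ± 0.27) and Irgm1 at 49.4 and 23.0 CPM (-1.22 ± 0.28). No member was called without either day 4 library, and 6 were called without the expanded library of day 2 round 2. The 1 tested erythroid marker was lower (1.54 to 6910 against 0 to 11.2 CPM summed over the list) and the 1 tested neutrophil marker higher (0 to 2.99 against 5.58 to 917 CPM), while none of 7 fibroblast markers was called. Their part in the result was not tested.

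In lymphatic endothelial-like cells 1 of 9 tested members was called lower, where 5.31% of all genes were. Gbp6 stood at 18.6, 33.6, 57.3, 112.7 and 59.0 CPM in control and at 10.5, 8.36, 50.8, 79.2 and 39.1 CPM in expanded libraries (-0.87 ± 0.25). Each expanded library was below the control library of its day and round, while the arms as a whole overlapped, with the highest values of both on day 2 round 2. Iigp1 (362 and 276 CPM on average) and Igtp (-0.91 ± 0.29) were not called. Gbp3 alone of the 9 had the opposite sign, at 37.0 and 53.7 CPM. The single call rested on several libraries: no member was called without the control library of day 1 round 1, of day 1 round 2 or of day 4, or without the expanded library of day 1 round 2, of day 2 round 1 or of day 4. It became 5 without the control library of day 2 round 1 and 4 without the expanded library of day 2 round 2. Of 6 tested fibroblast markers 4 were lower (1174 to 14330 against 97.8 to 10470 CPM summed) and so were 4 of 4 erythroid markers (0 to 11040 against 0 to 23.6 CPM), and their part in the result was not tested.

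Fibroblast-like cells had 3 of 10 tested members lower, Gbp2, Iigp1 and Irgm2, in a class where 15.3% of all 14248 genes were called lower. Gbp2 stood at 148, 202, 212, 269 and 265 CPM in control and at 46.0, 115, 136, 111 and 102 CPM in expanded libraries (-1.31 ± 0.22). Irgm2 stood at 12.3, 9.99, 9.62, 12.6 and 10.6 CPM against 6.60, 6.04, 9.48, 7.80 and 5.54 CPM (-0.88 ± 0.17). For these 2 of 10 every expanded library lay below every control library, as in 4.4% of all genes. Iigp1 overlapped, at 87.4, 103, 66.0, 177 and 179.9 CPM against 64.7, 70.1, 98.2, 119.8 and 57.9 CPM (-0.78 ± 0.27). With day and round as a block the count stayed at 3, but Gbp5 (-0.95) took the place of Iigp1. In the cluster led by Igfbp2, Cadps and Mme, 6 members were called lower (Gbp2, Gbp5, Gbp6, Irgm1, Igtp and Iigp1), with Gbp2 at -1.91. In the clusters led by Bdh2 and Cpz and by Tbx3 and Tnfrsf11b, Gbp2 alone was called, and in those led by Fmod and Cck and by Lrrc15 and Fbn2 none was. In the cluster led by Apod and Smim41 (5 control and 4 expanded libraries) 3 of 4 tested members were lower, Iigp1 at -3.76 ± 0.57, Gbp2 at -2.36 ± 0.41 and Irgm1 at -2.32 ± 0.46. Whether the sub-clusters differed was not tested. Their counts stand without the share of all genes called within each, which is not given here. Without the control library of day 2 round 1 the count over the class was 6.

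The fibroblast class, like that of macrophages below, was made of different clusters in the 2 arms. The cluster led by Mirg and Wfdc12 held 22.9% to 40.1% of the class in control and 0.909% to 6.75% in expanded libraries, that led by Rbp4 and Cthrc1 6.13% to 12.6% against 0.403% to 4.47%, and that led by Lgi2 and Agt 3.22% to 10.7% against 0.171% to 2.27%. The cluster led by Tnc and Timp1 went the other way, with 0.173% to 6.18% against 15.5% to 22.5%, and so did the Tbx3 Tnfrsf11b cluster, with 4.26% to 11.9% against 23.1% to 30.4%. Of 7 fibroblast markers 6 were lower and 1 higher (59810 to 173500 against 23920 to 67060 CPM summed), of 7 dermal papilla markers 4 were higher and 1 lower (158 to 579.5 against 808 to 1996 CPM), and of 5 tested neutrophil markers 2 were higher (0.691 to 3.396 against 3.14 to 100.9 CPM). The part of this make-up and of these markers in the result was not tested.

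**Figure D3:**
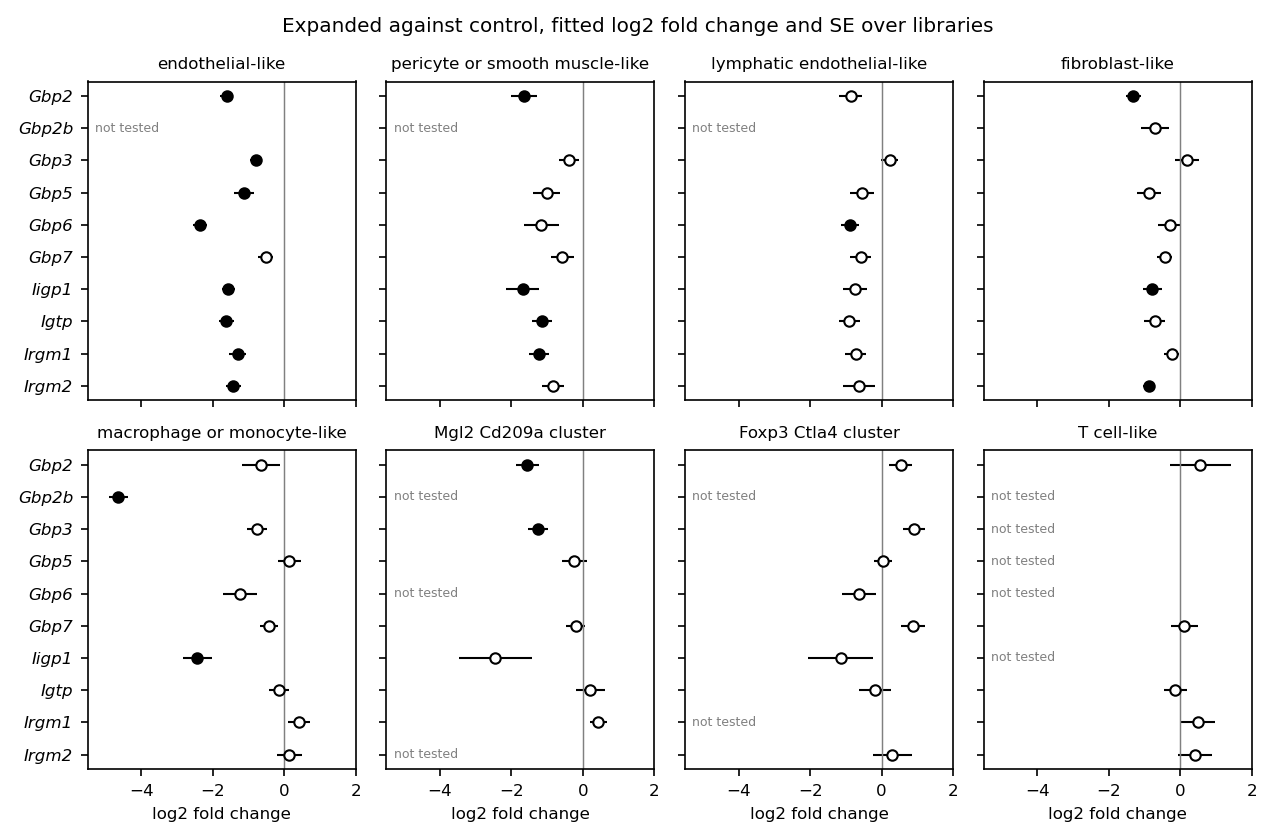
Log2 fold change of each member, expanded over control, in 8 classes with the standard error as a bar; filled points have an adjusted p under 0.05 and open points do not. The endothelial-like panel holds 8 filled points, all below 0, and no filled point in any panel is above 0.

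Macrophages showed a single very large difference. Gbp2b stood at 35.4, 43.4, 67.0, 50.8 and 94.9 CPM in control macrophage or monocyte-like cells and at 3.85, 1.33, 2.18, 3.26 and 2.73 CPM in expanded ones. These levels rested on 1105 and 74 UMIs and gave a log2 fold change of -4.64 ± 0.27, a 24.9-fold lower level, in 5 of 5 pairs of libraries. Iigp1 was the other member called, at 31.4, 35.2, 50.2, 34.1 and 64.7 CPM against 15.9, 3.99, 5.72, 14.8 and 5.28 CPM (-2.44 ± 0.40). In this class 12.4% of all 11203 genes were called lower, and 4.46% had no overlap in this direction, against 2 of 10 members on both counts. The other 8 were not called. Gbp2 overlapped widely, at 77.1, 58.9, 57.0, 157 and 145 CPM against 23.6, 8.65, 152, 242 and 88.0 CPM, and Irgm1 was at 22.7 and 34.8 CPM on average (0.41 ± 0.30). Without the expanded library of day 2 round 2 the count was 4, and with hashed mice in place of libraries it was 4.

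The macrophage class was not made of the same cells in both arms. A cluster led by Chil3 and Ly6c2, genes known from monocytes, held 5.46% to 52.2% of the class in control and 40.9% to 99.2% in expanded libraries, and a cluster led by Cd209f and the complement C1q genes, known from tissue macrophages, held the rest. Gbp2b was highest in the Cd209f C1q cluster. In that cluster it stood at 37.5, 47.4, 73.1, 108.7 and 114.7 CPM in control and at 6.98, 5.27 and 9.78 CPM in the 3 expanded libraries with at least 20 such cells (day 1 rounds 1 and 2, and day 4), or -3.23 ± 0.34. Iigp1 was also called within it (-1.57 ± 0.28). In the Chil3 Ly6c2 cluster Gbp2b ran from 0 to 6.90 CPM in control and from 0 to 3.36 CPM in expanded libraries, and no member was called. The share of all genes called within either cluster is not given here. Fibroblast markers moved with the arm in the class as a whole, with 6 of 7 lower (312 to 4273 against 30.9 to 478 CPM summed), and so did neutrophil markers, with 2 of 3 tested higher (34.2 to 87.9 against 267 to 1763 CPM). Of 7 macrophage markers 4 were lower and 1 higher, and 3 of 5 dendritic (2276 to 5938 against 206 to 1571 CPM) and 2 of 5 Langerhans markers were lower. Within the Cd209f C1q cluster 6 of 6 tested fibroblast markers were lower (363 to 3704 against 84.1 to 490.5 CPM) and 3 of 4 tested basal keratinocyte markers higher. Their part in the result was not tested. The type I interferon list was called higher over the whole class in 11 of 13 genes, where 9.6% of all genes were; Isg15, for one, rose from 91.2 to 264 CPM (log2 fold change 1.28 ± 0.27, adjusted p = 0.00875, edgeR). Within either cluster the count of that list was 0, with 4 genes at an unadjusted p under 0.05 in the Chil3 Ly6c2 cluster and 2 in the Cd209f C1q cluster. Over the class it was 7 without either day 4 library.

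Outside these classes few members were called. In the Mgl2 Cd209a cluster, whose leading genes are known from dermal dendritic cells, 2 of 7 tested members were lower, where 9.45% of all genes were. Gbp2 stood at 35.2, 23.3, 35.0, 80.6 and 159 CPM in control and at 6.05, 9.20, 13.8, 44.8 and 69.6 CPM in expanded libraries (-1.55 ± 0.32). Gbp3 stood at 4.73, 4.87, 8.76, 21.9 and 31.8 CPM against 1.34, 1.97, 6.91, 6.02 and 22.6 CPM (-1.24 ± 0.28). Both were lower in 5 of 5 pairs, and both arms were higher in later libraries, so that the arms overlapped. In this cluster 6 of 6 tested fibroblast markers were lower (165 to 4351 against 39.5 to 222 CPM summed), as were 3 of 5 dendritic markers (11930 to 16000 against 8819 to 16980 CPM), and 2 neutrophil markers were higher (3.13 to 22.6 against 8.73 to 40.8 CPM). Their part in the result was not tested. In the Krt15 Lhx2 cluster, which carries genes of hair follicle stem cells, Gbp2 was the 1 of 3 tested members called, in a class with 0.35% of genes called lower. It stood at 9.66, 8.21, 3.27 and 15.9 CPM in the 4 control libraries with enough cells and at 1.26, 0.909, 3.71, 0 and 1.25 CPM in the expanded ones (-2.86 ± 0.54), and DESeq2 called no member there.

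Over the 16 classes tested, 7 had at least 1 member called, with 21 calls lower and 0 higher in 103 tests. The share of all genes called in either direction ran from 0% in the Foxp3 Ctla4 cluster to 29.1% in fibroblast-like cells. A further 8 classes had members tested and none called by edgeR (46 tests), with 8 tests at an unadjusted p under 0.05 and 0 calls by DESeq2. In the Foxp3 Ctla4 cluster 5 of 8 tested members had a positive log2 fold change (Gbp2, Gbp3, Gbp5, Gbp7 and Irgm2) and 3 a negative one (Iigp1, Gbp6 and Igtp), and none was called. Gbp3 stood there at 184, 95.5, 290.3 and 214 CPM in control and at 427, 253, 554 and 350.4 CPM in expanded libraries (day 1 round 2 onward), higher in 4 of 4 pairs, with a log2 fold change of 0.91 ± 0.31. Gbp7 had 143 and 286 CPM (0.87 ± 0.33), and Gbp2 had 229.5 and 363.7 CPM (0.53). In Schwann-like cells all 9 tested members had negative values and none was called, with Igtp at -0.86 and Irgm2 at -0.99. Whether the arm effect differed between classes was not tested.

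Time was examined within each arm, with hashed mice as replicates, in the 4 classes that had enough mice: macrophages, the Mgl2 Cd209a cluster, fibroblasts and T cell-like cells. Day 4 came from a single round, so day and round cannot be told apart for it. Of 128 tests of members 6 passed (29 had an unadjusted p under 0.05, and DESeq2 called 7). The share of all genes that passed in a contrast ran from 0% to 9.79%. These were T cell-like cells of control skin, day 4 minus day 2, and fibroblasts of expanded skin, day 2 minus day 1.

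In macrophages of expanded skin Gbp2 and Gbp7 were compared between day 2 and day 1, where the day 1 side is 1 mouse, assumed to vary like the others. The 1 hashed expanded mouse of day 1 had 9.09 CPM of Gbp2, and the 7 expanded mice of day 2 had 69.8, 234 and 146 CPM in round 1 and 123, 352, 130.1 and 113 CPM in round 2. Gbp2 was called higher with a log2 fold change of 4.15 ± 0.88 (adjusted p = 0.0222, edgeR) and Gbp7 with 1.62 ± 0.39 (adjusted p = 0.0366), beside 0.321% of all genes called higher. Gbp7 was not called after thinning to 2000 UMIs, and no fit can leave out the day 1 mouse. The libraries, which hold all cells, gave 23.6 and 8.65 CPM of Gbp2 on day 1 and 152 and 242 CPM on day 2. Gbp2b did not share this course: it lay between 0 and 4.81 CPM in every expanded mouse of every day and between 2.11 and 154 CPM in control mice.

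**Figure D4:**
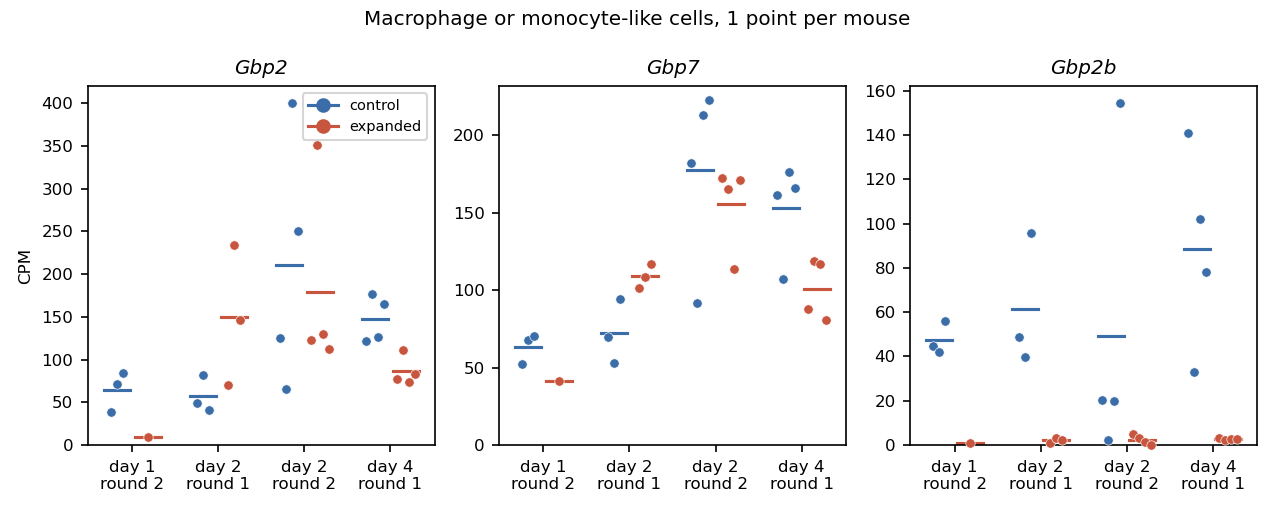
Level of Gbp2, Gbp7 and Gbp2b in CPM in macrophage or monocyte-like cells of each hashed mouse, by day and round. Each point is 1 mouse. Gbp2 of expanded mice goes from 9.09 CPM in the 1 mouse of day 1 to between 69.8 and 352 CPM on day 2, and Gbp2b of expanded mice is at most 4.81 CPM.

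In the Mgl2 Cd209a cluster of control skin Gbp7 rose from day 1 to day 2 (log2 fold change 1.58, adjusted p = 0.0222, edgeR; 0.862% of genes were called higher), from 12.6, 11.1 and 0 CPM in 3 mice to between 15.1 and 85.7 CPM in 7. The call was lost without the first or the second control mouse of day 1. From day 2 to day 4 Gbp2 rose (1.68, adjusted p = 0.026) and Gbp2b rose (4.41, adjusted p = 0.0096), beside 0.886% of genes called higher. Gbp2 went from between 12.5 and 137 CPM in 7 mice to 243, 85.4, 143.5 and 195 CPM in 4, and Gbp2b from between 0 and 2.11 CPM to 14.4, 2.19, 7.07 and 56.0 CPM. One of these calls was left without the first control mouse of day 4 and none without the fourth. In fibroblasts of expanded skin Gbp3 fell from day 2 to day 4 (-1.81, adjusted p = 0.0239), where 2.75% of genes were called lower. Its levels were 10.9 to 54.6 CPM in the 6 mice of day 2 and 7.62, 9.56, 5.88 and 8.29 CPM in the 4 of day 4, and the call was lost without any 1 of these 4 mice. No member in any of the 4 classes was called for a change of its arm effect between days. Of 64 tests 0 passed in edgeR, 14 had an unadjusted p under 0.05 and DESeq2 called 2. At most 0.0591% of all genes passed in any of these contrasts, and groups held few mice. An absence of change is thus not shown.

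The transcript of interferon-gamma itself came mostly from lymphocytes. Of 1070 Ifng UMIs in all cells, 649 (60.6%) were in the NK cell-like class and 367 (34.3%) in that of T cells, with 28 in the Foxp3 Ctla4 cluster. Ifng was found in 17.9% of control and 22.5% of expanded NK cell-like cells (exact 95% intervals 14.4% to 21.8% and 17.5% to 28.1%, covering counting error only), or 9.69% and 13.2% after thinning to 2000 UMIs. In T cell-like cells it was found in 3.93% and 10.2% (2.58% to 5.71%, and 8.32% to 12.2%), or 2.56% and 7.25% after thinning. The expanded library of day 1 round 2 held 82 of the 98 expanded T cell-like cells with Ifng. Without it the expanded share was 3.55% (2.04% to 5.70%, 16 of 451 cells). In that library 428 T cell-like cells came from 1 mouse, and 24 and 62 from the others. Its 514 T cell-like cells included 305 of the cluster led by Cd8a and Cd8b1. How Ifng was spread over these mice and clusters was not tested. Fibroblasts, which should lack Ifng, gave 0.0149% and 0.0789%, with median depths of 9799.5 and 12166.5 UMIs against 5486 and 7045.5 UMIs in NK cell-like cells and 3454 and 4478 UMIs in T cell-like cells.

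No difference in Ifng between the arms was detected beyond the spread between libraries. NK cell-like cells had 7.79, 139, 114, 282 and 69.3 CPM in control and 115, 39.5, 81.0, 209 and 532 CPM in expanded libraries, or 122 ± 102 and 195 ± 198 CPM (SD, n = 5 each; exact two-sided permutation test, p = 0.564, adjusted over 3 tests p = 0.845). T cell-like cells had 19.3, 26.7, 25.3, 9.69 and 60.7 CPM against 29.7, 117.8, 4.27, 10.8 and 13.9 CPM, or 28.3 ± 19.3 and 35.3 ± 47.1 CPM (exact permutation p = 0.889, adjusted 0.889). Over all cells the level was 2.14 ± 1.76 and 2.92 ± 1.96 CPM (exact permutation p = 0.524, adjusted 0.845). The smallest p that 5 against 5 libraries allow is 0.00794. The sign of the NK cell difference, expanded minus control, turned to -11.3 CPM without the expanded library of day 4, and that of T cells to -13.7 CPM without the expanded library of day 1 round 2.

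**Figure D5:**
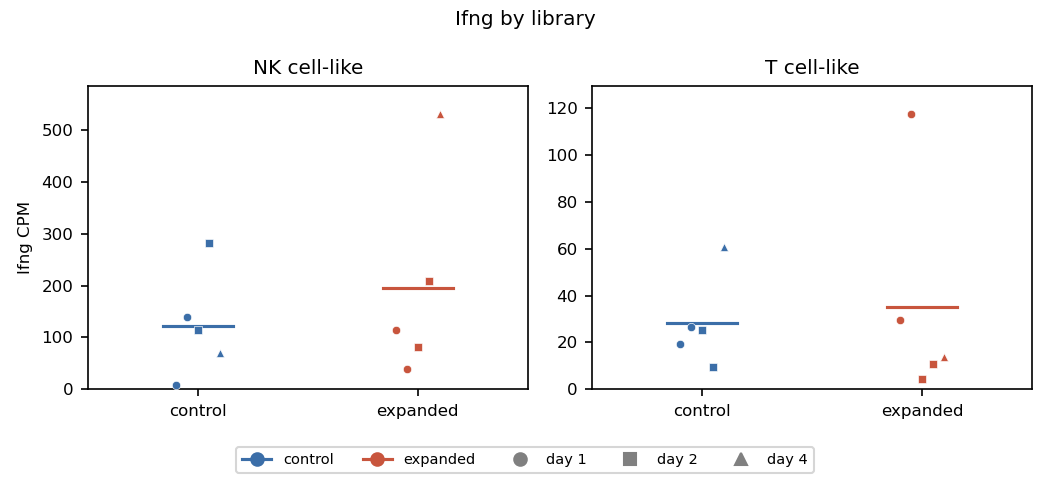
Level of Ifng in CPM in NK cell-like and T cell-like cells of each library; each point is 1 library and bars mark arm means. The highest points are 532 CPM in NK cell-like cells of expanded day 4 and 117.8 CPM in T cell-like cells of expanded day 1 round 2, and the arms overlap in both classes.

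The genes whose pattern was most like that of the 10 members were found as follows. Likeness was the Pearson correlation, across the same 193 combinations of class and library, of a gene with the mean of the members, for 8803 genes with a mean of at least 10 CPM. Among the 10 closest were Ifi47 (r = 0.663), Gbp4 (0.573), Rtp4 (0.546), Ifit1 (0.543), Zbp1 (0.532), Samhd1 (0.513), Parp14 (0.495), Xaf1 (0.493) and Herc6 (0.486). Of these, Ifi47 and Gbp4 were on the list of further GTPases and Rtp4 and Ifit1 on the type I list. The values describe the libraries and carry no test.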

How the data were processed

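The deposited matrices held raw UMI counts per gene and barcode, which the authors obtained using Cell Ranger 6.1.2 on mm10, per the submitters' processing notes. A minimum of 500 UMIs and 200 genes per barcode and a maximum of 10% mitochondrial UMIs were required, doublets from Scrublet and from hashtags were removed, and cells were clustered (scanpy 1.11.5, 2000 variable genes, 30 components, Leiden resolution 1). Clusters were named from marker lists, with details of naming set after the clusters were seen. Counts were summed per class and library and tested with edgeR 4.0.16 (R 4.3.3), expanded against control with day as a covariate, where 4 libraries per arm had at least 20 cells; the Cd209f C1q and Sele Selp sub-clusters were fitted after the clusters were seen with 3 expanded libraries. The scripts were tested on simulated data. DESeq2 1.42.0, day and round together as a block, other filters, cells thinned to 2000 UMIs, hashed mice and leaving out each library were alternatives. Fits within sub-clusters and without day 1 mice were added after seeing the data.

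The members and lists were chosen with earlier results of these data known. The genes named outside the set are the signalling genes that passed, or the 3 most abundant of it in endothelial-like cells, and, of the 10 most alike, all but 1, which is not reported here; Cd274, Cxcl9, Tap1, Psmb9, Gbp10, Tgtp2, Rtp4, Jak1 and the receptor chains were named after their values were seen. The library names do not say what a round shares. Libraries of the same day and round deviated together, with correlations from 0.067 to 0.403 over 6 classes and 2 days. Mice of an arm and round shared 1 reaction, so p-values over libraries and over mice may include technical spread. Hashtags (HTODemux in Seurat 5.3.0, quantile 0.99) assigned 21140 cells to a mouse, immune cells far more often than others.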

Additional observations from a re-analysis of the deposited data

Results flagged for a closer look

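Of 128 groups of 4 to 10 libraries looked at, 1 library stood far from the rest of its group in 16, and chance gives about 1 in 20. The groups share libraries and hold members that vary together, so the 16 cannot be set against that rate. The neutrophil-like cells of the expanded library of day 2 round 2 account for 7 of these. There Gbp2 stood at 1864 CPM, against 51.3 to 222 CPM in the other 4 expanded libraries, Gbp7 at 193.7 CPM, Irgm1 at 101 CPM, Gbp5 at 61.8 CPM, Gbp3 at 42.1 CPM, Gbp2b at 23.9 CPM and Gbp6 at 1.40 CPM. The Gbp6 value and several of the others rest on few cells or molecules, and the summed level of the set in that library was 2361 CPM against 61.5 to 321 CPM in the others.

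In endothelial-like cells of expanded skin Gbp2 was far above the rest on day 2 round 1 (131.6 CPM), and Gbp5 (58.2 CPM) and Gbp7 (193 CPM) on day 2 round 2. In lymphatic endothelial-like cells the control library of day 2 round 2 stood apart with 362.3 CPM of Gbp2 and 79.4 CPM of Gbp3, and the expanded library of the same day and round with 92.2 CPM of Irgm1. In the Mgl2 Cd209a cluster the day 4 libraries stood apart with 17.4 CPM of Gbp2b in control and 22.6 CPM of Gbp3 in expanded skin, and the expanded library of day 2 round 2 with 2.58 CPM of Iigp1.

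Irgm1 values lay in opposite directions in 2 classes, on few molecules in the NK cell-like class. It was lower in all 5 pairs of libraries in endothelial-like cells and higher in all 5 in NK cell-like cells, where the mean was 2.23 times that of control (8.70, 31.6, 24.6, 6.35 and 16.9 CPM against 2.60, 9.82, 13.7, 5.40 and 8.00 CPM). The NK cell levels were too low to be tested and the difference between the classes was not tested.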

How the results depend on the processing

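Of 354 values recomputed under the planned settings for members called in their class none changed sign, while 16 of 592 did among members not called, all with a main log2 fold change within 0.24 of 0. Every setting reused the same libraries, and called members had the larger differences by selection. The counts of sign changes are thus no support for an arm difference of the set. Within sub-clusters 3 of 36 values of called members changed sign, all in fibroblasts: Iigp1 to 0.048 in the Fmod Cck cluster and 0.564 in the Lrrc15 Fbn2 cluster, and Irgm2 to 0.084 in the Bdh2 Cpz cluster. So did 9 of 47 values of members not called. The cause of the changes below was not tested. The share of all genes called and the number of tests under each setting are not given here. The counts below thus describe the settings and cannot be set against that share.

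Without the filter on low counts, members called lower numbered 5 in lymphatic endothelial-like cells, 7 in fibroblasts and 5 in macrophages, type I genes in endothelial-like cells 8, day contrasts 33 and changes of the arm effect between days 9. DESeq2 called 0 members in lymphatic cells, 5 in fibroblasts, 2 type I genes in endothelial-like cells and 2 changes of the arm effect between days. Thinning left 2 members in pericytes, 2 in lymphatic cells, 1 in the Mgl2 Cd209a cluster, 2 other GTPases, 3 targets and 1 inflammasome partner, and ended the calls of Irf2, Irf9, Gbp9 and Tap2, and of Gbp7 between days in macrophages. At least 50 cells gave 5 in lymphatic cells and at most 5% mitochondrial UMIs gave 2. With day and round as a block, type I genes numbered 2 in endothelial-like cells. Beside the calls of Gbp7, Gbp5, Iigp1, Psmb8 and Isg15 given above, this block also brought Col1a1 to an adjusted p of 0.0381 (edgeR). With mice, the counts were 0 in lymphatic cells, 4 in macrophages, 3 other GTPases and 11 type I genes. Within sub-clusters members called lower numbered 5 in Sele Selp cells, 6, 1, 1, 0, 0 and 3 in fibroblasts (in the order of the report, with the Apod Smim41 cluster last) and 0 in Chil3 Ly6c2 cells, and there were 3 type I genes in Rbp7 cells, and 0 and 0 type I genes in both macrophage clusters.

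Leaving out 1 library at a time, members called lower ranged from 7 to 9 in endothelial-like cells, 0 to 6 in pericytes, 0 to 5 in lymphatic cells, 2 to 6 in fibroblasts, 2 to 4 in macrophages and 2 to 3 in the Mgl2 Cd209a cluster. In endothelial-like cells the lists ranged from 3 to 5 (other GTPases), 2 to 5 (signalling), 2 to 9 (targets), 0 to 6 (type I) and 1 to 3 (inflammasome), and type I genes in macrophages from 7 to 11. Il15 went from -0.38 to 0.21, positive at 0.21 and 0.20 without a day 4 library. Leaving out mice, day contrasts ranged from 4 to 6, changes between days from 0 to 1, and single contrasts from 0 to 2 in the Mgl2 Cd209a cluster (day 4 minus day 2), 0 to 1 (day 2 minus day 1), 0 to 1 in fibroblasts and 2 to 2 in macrophages, where the lone expanded mouse of day 1 could not be left out. The Ifng difference ranged from 0.0595 to 1.43 CPM over all cells, -11.3 to 112.9 CPM in NK cells and -13.7 to 15.04 CPM in T cells. Mice could not be used for pericytes, which had too few hashed cells. Depth limits the members with few molecules per class, which were not tested.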
